A study of Drosophila melanogaster with 17 samples.

Results

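The storage protein genes of the larval fat body were followed through mRNA-seq libraries made from dissected central nervous system (CNS) of Drosophila melanogaster. They were Lsp1alpha, Lsp1beta, Lsp1gamma, Lsp2, Fbp1 and Fbp2, taken by name from the table of raw gene counts, and all 6 of them were found among the 13872 genes listed there. Every member had counts in every one of the 17 libraries, the lowest being 16 read pairs for Fbp2 in C24_3, and all 6 passed the filter on low counts in each comparison. In these libraries the 6 storage transcripts were most abundant in 3 pools that the study set aside, and they varied several fold among the other pools of 1 genotype.

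The larval fat body is the insect counterpart of liver and adipose tissue, and in the last larval stage it fills the hemolymph with storage proteins that are taken up again before metamorphosis. Lsp1alpha, Lsp1beta and Lsp1gamma encode the subunits of larval serum protein 1, a hexamerin, and Lsp2 encodes the hexamerin larval serum protein 2. Fbp1 encodes a receptor through which the fat body takes up larval serum protein 1, and its gene is a classic target of the steroid hormone ecdysone in this tissue. Fbp2 encodes a protein of the short-chain dehydrogenase family, related in sequence to alcohol dehydrogenase. None of these genes is a marker of neurons or glia.

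The genes lie at separate places in the genome, given here on the BDGP6 build by their FlyBase identifiers, whereas the reads had been aligned to the earlier build. Lsp1alpha (FBgn0002562) is on chromosome X at 12490291 to 12492982, Lsp1beta (FBgn0002563) on 2L at 898500 to 901316 and Lsp1gamma (FBgn0002564) on 3L at 66430 to 68995, all on the plus strand. Lsp2 (FBgn0002565) is on 3L at 12129393 to 12131869 on the plus strand and shares bases with the antisense gene asRNA:CR11538, which is not listed in the counts. Fbp1 (FBgn0000639) is on 3L at 14094589 to 14098053 on the minus strand, and Fbp2 (FBgn0000640) on 2L at 9426784 to 9427917 on the plus strand. Fbp2 shares 48 exon bases (4.47% of its exons) with CG42847, which is listed in the counts. Counting did not use strand, so pairs in shared bases of overlapping genes cannot be assigned with certainty, and the other 5 members share no exon base with a listed gene. The merged exons measure 2625, 2749, 2501, 2477, 3465 and 1074 bases for Lsp1alpha, Lsp1beta, Lsp1gamma, Lsp2, Fbp1 and Fbp2.

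Each library came from a pool of CNS of larvae late in the third instar, and the question of the study was how a lower level of Smn, the gene lost in spinal muscular atrophy, changes expression in neurons. The X7/C24 larvae (4 libraries, the third sequencing round) carried the elavGAL4 driver, a UAS hairpin transgene against Smn (C24) and the Df(3L)SmnX7 deletion on 1 chromosome. The C24 larvae (7 libraries) carried the driver and the hairpin, and the WT larvae (6 libraries) the driver and a UAS-PWIZ insertion without a hairpin. The elav driver is active in postmitotic neurons, so the hairpin was not aimed at the fat body, while the deletion is present in all cells. C24_1 to C24_4 and WT_1 to WT_3 belong to a pilot round, and C24_5 to C24_7 and WT_4 to WT_6 to a second round. The third round holds X7/C24 libraries only, so that genotype and round cannot be told apart for X7/C24.

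The libraries held 7883183 to 28339670 counts, each a pair of reads. Smn had 27.8 to 28.5 CPM (counts per 1000000 counts of the library) in X7/C24_1 to X7/C24_3 and 48.6 CPM in X7/C24_4, against 53.6 to 72.0 CPM in the second-round C24 libraries and 61.5 to 68.5 CPM in the second-round WT libraries. The study set aside C24_1, WT_1 and WT_2 for low CNS markers, and left X7/C24_4 out of its comparisons for duplicated reads. It also advised against C24_3 and WT_3, in which the GAL4 transgene was low. A list of 8 neuronal genes summed to 52.5 CPM in C24_1, 587 CPM in WT_1 and 134 CPM in WT_2, against 3134 to 5481 CPM in the other 14 libraries. Results that rest on these libraries are given with and without them.

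The Lsp1 genes spanned more than 500-fold between libraries. Lsp1gamma, the most abundant of them, reached 516 CPM in C24_1, 2852 CPM in WT_1 and 357 CPM in WT_2. It had 31.3, 41.99, 50.6 and 54.3 CPM in X7/C24_1 to X7/C24_4, 5.03 to 46.6 CPM in the other 6 C24 libraries and 15.5 to 72.5 CPM in the other 4 WT libraries. By counts, Lsp1gamma held rank 7731 among the 12092 genes with a count in C24_4, whereas it held rank 9 of 11985 in WT_1. Lsp1beta reached 397 CPM in C24_1, 1805 CPM in WT_1 and 295 CPM in WT_2, and lay between 3.09 CPM in C24_4 and 51.6 CPM in WT_3 among the other libraries. Lsp1alpha differed most among the set-aside pools. It had 64.4 CPM in C24_1, against 1098 CPM in WT_1 and 55.8 CPM in WT_2, the last of which is close to the 51.0 CPM of WT_3. Its lowest level was 2.10 CPM in C24_3, so that the highest exceeded the lowest 522-fold.

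Lsp2, Fbp1 and Fbp2 reached similar levels in all 3 set-aside libraries. Lsp2 had 1621 CPM in C24_1, 1531 CPM in WT_1 and 999.6 CPM in WT_2, and 4.46 to 52.0 CPM in the other 14 libraries. Fbp1, the receptor gene, had 1039 CPM in C24_1, 843 CPM in WT_1 and 828 CPM in WT_2. These 3 values lay within a factor of 1.25 of each other. Among the same pools Lsp1alpha differed 19.7-fold, Lsp1beta 6.12-fold and Lsp1gamma 8.00-fold. Outside them Fbp1 was highest in X7/C24_1, X7/C24_2 and X7/C24_3, with 125, 113 and 108 CPM, and lowest in C24_3 with 7.23 CPM. Fbp2 had 295 CPM in C24_1, 229 CPM in WT_1 and 224 CPM in WT_2, against 1.46 to 12.3 CPM in the others. For each of the 6 genes the 3 highest libraries were C24_1, WT_1 and WT_2, and the lowest 2 of the other 14 were C24_3 and C24_4. In bulk libraries fewer cells of a type and less RNA per cell cannot be told apart.

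**Figure D1:**
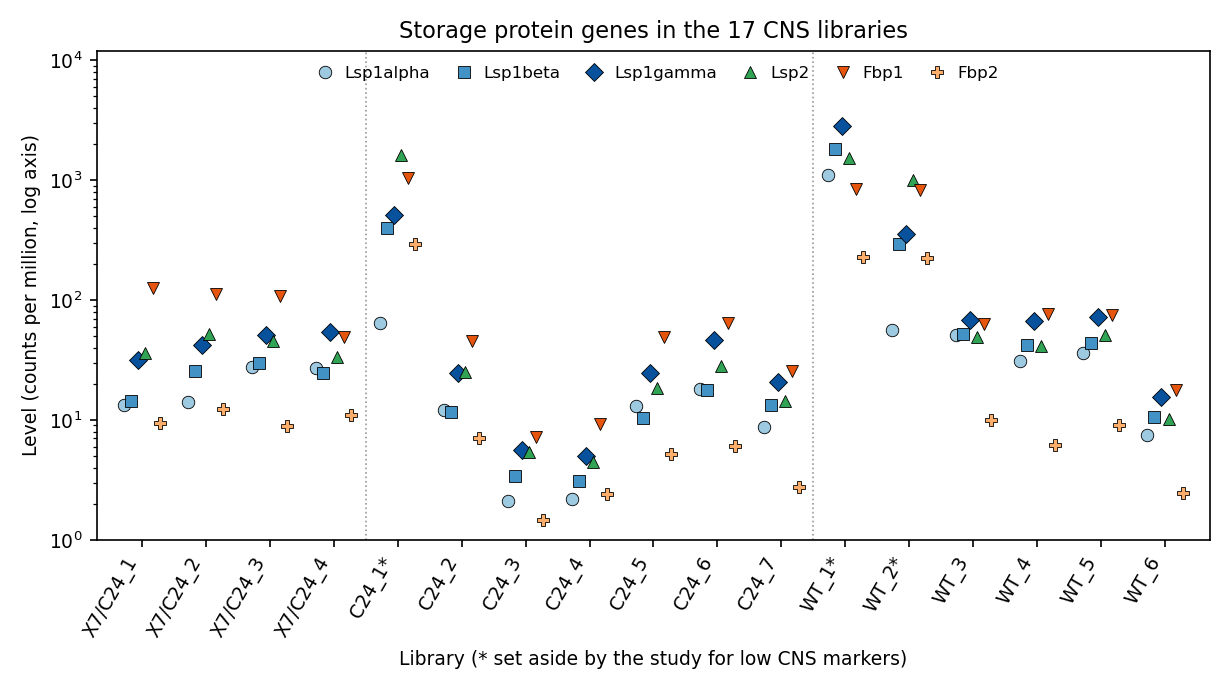
Level of each storage protein gene (CPM, log axis) in each library, with X7/C24 on the left, C24 in the middle and WT on the right; 1 point is 1 gene in 1 library. The starred libraries C24_1, WT_1 and WT_2 stand above all others for every gene, and C24_3 and C24_4 are at the bottom.

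Summed over the 6 genes, storage protein transcripts took 0.393% of all counts in C24_1 (95% Wilson interval 0.389 to 0.398%), 0.836% in WT_1 (0.831 to 0.841%) and 0.276% in WT_2 (0.273 to 0.279%). The share was 0.0229, 0.0259, 0.0270 and 0.0200% in X7/C24_1 to X7/C24_4. It was 0.0126, 0.00252 and 0.00264% in C24_2 to C24_4 and 0.0121, 0.0181 and 0.00852% in C24_5 to C24_7. In WT_3 to WT_6 it was 0.0294, 0.0263, 0.0288 and 0.00641%. The share therefore differed 332-fold over 17 libraries and 11.7-fold over the 14 libraries that were not set aside. The 4 X7/C24 libraries were the most even, within a factor of 1.35. The intervals cover counting error within a library only and hold no spread between pools. They are far narrower than the range over the pools. The lowest share still rested on 275 read pairs.

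No test separated the shares by sequencing round or by the C24 genotype. The geometric mean was 0.0144% in the second round and 0.0418% in the pilot, a difference of -1.53 on the log2 scale (2-sided exact permutation test, p = 0.307, n = 6 and 7). Within C24 it was -0.13 (exact permutation p = 0.971, n = 3 and 4), and within WT -3.48 (exact permutation p = 0.1, the smallest that 3 against 3 allows). All 3 second-round WT shares lay below all 3 pilot WT shares. Without C24_1, WT_1 and WT_2 the sign turned, to 1.03 (exact permutation p = 0.262, n = 6 and 4), and without C24_3 and WT_3 as well, a setting chosen after seeing the data, it was 1.32 (exact permutation p = 0.179, n = 6 and 2). Between genotypes the geometric mean was 0.0130% in C24 and 0.0566% in WT, a difference of -2.13 (exact permutation p = 0.152, n = 7 and 6). It was -3.81 within the pilot (exact permutation p = 0.143, n = 4 and 3), -0.46 within the second round (exact permutation p = 0.6, n = 3 each) and -1.40 without the libraries set aside (exact permutation p = 0.105, n = 6 and 4). Without C24_3 and WT_3 as well it was -0.90 (exact permutation p = 0.321, n = 5 and 3). C24 was lower than WT in each of these settings, and the 2 genotypes overlapped in all of them.

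The WT pools of the second round differed more in these genes than in nearly all others. There WT_6 had 7.53 CPM of Lsp1alpha, 10.2 CPM of Lsp2 and 17.7 CPM of Fbp1, while WT_4 and WT_5 had 31.2 and 36.5 CPM, 41.5 and 50.8 CPM, and 75.7 and 74.6 CPM of the same genes. WT_6 was the lowest of the 6 second-round libraries for 5 of the 6 genes, the exception being Lsp1beta, which was lowest in C24_5. WT_5 was the highest for 5 of 6, with Fbp1 highest in WT_4. The SD of the log2 level in X7/C24_1 to X7/C24_3 ran from 0.12 for Fbp1 to 0.57 for Lsp1alpha, against a median of 0.09 over 9546 genes. Among C24_5 to C24_7 it was 0.30 to 0.62, against a median of 0.16 over 9326 genes. Among WT_4 to WT_6 it was 0.91 to 1.22, against a median of 0.10 over 9591 genes, and 98.5 to 98.8% of those genes had a smaller SD than the members. A list of 10 midgut genes also differed among the WT pools, with 1.46 CPM in WT_6 against 15.2 CPM in WT_4 and 38.2 CPM in WT_5. In these pools 2 to 4 of its genes were at 0. Only 1 of the 10, Jon65Aiii, passed the filter on low counts in C24 vs WT of the second round. The part of the midgut list in the spread was not tested.

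The members did not keep fixed proportions to one another. To compare genes, counts were divided by exon length, and each gene was expressed as a percentage of the summed level per length of all 6. The Lsp1 genes together made up 23.4% of it in C24_1 and 24.2% in WT_2, but 67.3% in WT_1. Lsp2 was the leading gene in C24_1 and WT_2, with 40.8 and 36.0%, whereas it took 16.4 to 22.0% in the other 14 libraries, and 18.8% in WT_1. Set against Lsp1gamma per length, Lsp1alpha stood at 0.119 in C24_1 and 0.149 in WT_2, and between 0.321 and 0.714 in every other library. C24_1 and WT_2 thus shared a make-up with little Lsp1alpha and much Lsp2, although they differ in genotype, and WT_1 had a different one although it was set aside for the same reason.

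In X7/C24_1 to X7/C24_3 the Lsp1 genes together took 27.7, 32.6 and 41.9%, against 37.2 to 51.1% in C24_2 to C24_7 and 52.8 to 57.8% in WT_3 to WT_6. All 6 of these C24 libraries were below all 4 of these WT libraries. The WT libraries of the second round were alike in make-up whatever their level. WT_6 had a storage share 4.49-fold below that of WT_5. Its 52.8% of Lsp1 and 20.9% of Fbp1 were close to the 53.8 and 19.7% of WT_5. The pilot library WT_3 had 17.2% of Lsp1alpha, against 11.7 to 12.7% in WT_4 to WT_6. Fbp1 took 43.9, 33.8 and 31.3% of the summed level per length in X7/C24_1 to X7/C24_3, against 21.1 to 31.7% in C24_2 to C24_7 and 16.2 to 22.3% in WT_3 to WT_6. X7/C24_4 differed from the other X7/C24 libraries, with 17.9% of Fbp1 and 51.9% of Lsp1, values within 1 percentage point of the range of those WT libraries. Since these proportions were examined after the values were known, they are given as a description, without a test.

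**Figure D2:**
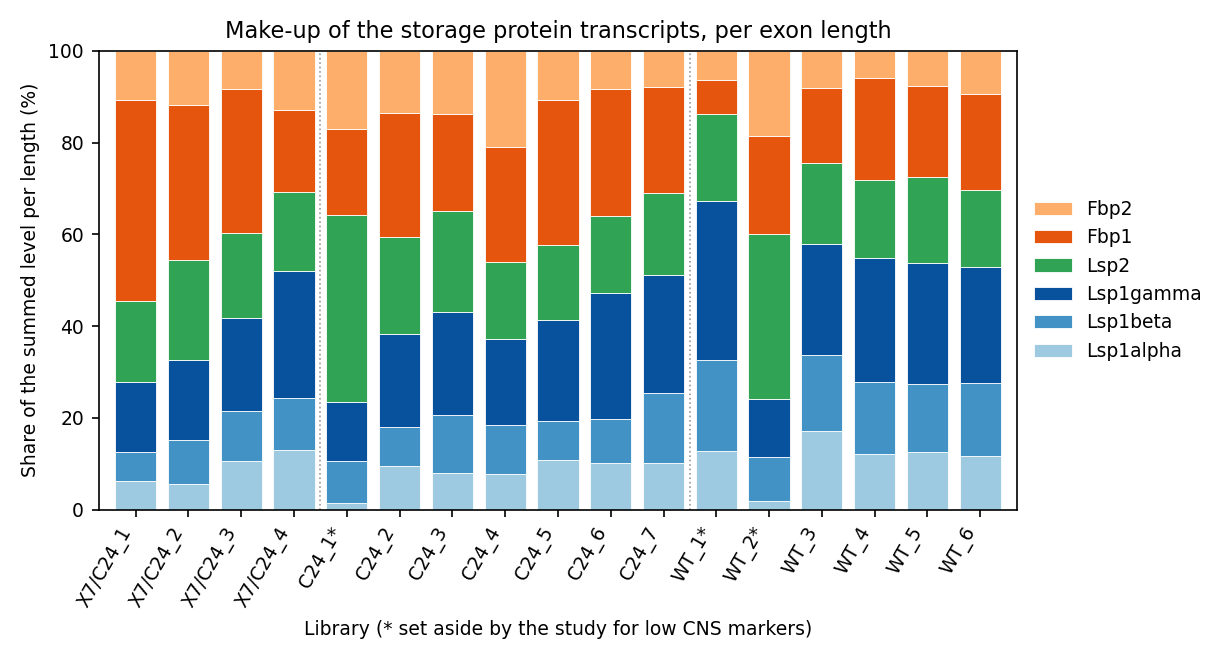
Share of each gene in the summed level per exon length of the 6 storage protein genes (%), 1 bar per library, with X7/C24 on the left, C24 in the middle and WT on the right. The orange Fbp1 segment is 31.3 to 43.9% in X7/C24_1 to X7/C24_3 and 21.1 to 31.7% in C24_2 to C24_7, and the green Lsp2 segment is largest in C24_1 and WT_2 (40.8 and 36.0%).

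The comparison of C24 with WT asked what the neuronal hairpin changes. In the second round, the 3 C24 pools had lower means than the 3 WT pools for all 6 genes, but none of the differences passed the test. Lsp1beta had 10.4, 17.7 and 13.4 CPM in C24_5 to C24_7, against 42.2, 44.1 and 10.6 CPM in WT_4 to WT_6. The single low WT pool falls among the C24 values, so that the groups overlap, as they do for all 6 genes. The log2 fold change of Lsp1beta was -1.25 ± 0.48 (SE), with an adjusted p of 0.634 in the edgeR quasi-likelihood test. The other log2 fold changes were -0.95 ± 0.52 for Lsp1alpha, -0.78 ± 0.53 for Lsp1gamma, -0.78 ± 0.52 for Lsp2, -0.30 ± 0.52 for Fbp1 and -0.36 ± 0.46 for Fbp2 (SE, n = 3 each). In this comparison 0 of 6 members passed, with 0.394% of the 9394 genes tested passing, and 0 of 6 did not overlap between the groups, with 11.3% of all genes not overlapping. At an unadjusted p under 0.05, edgeR and DESeq2 each had 1 member and limma-voom 0, while 7.31, 6.49 and 7.58% of the genes given a p were under it with these tools. After adjustment DESeq2 and limma-voom also had 0 members. Without C24_6 and WT_5, as in the 2 against 2 comparison of the study, 0 of 6 passed in edgeR. The log2 fold changes then ran from -1.13 for Lsp1beta to -0.12 for Fbp2 (edgeR adjusted p = 0.275 to 0.907).

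Over all rounds the members were at 0 of 6 as well, with 0.0107% of 9387 genes passing in edgeR. The log2 fold changes of C24 over WT were -3.18 ± 1.20 for Lsp1alpha, -1.92 ± 1.46 for Lsp1beta, -2.06 ± 1.41 for Lsp1gamma, -0.39 ± 1.62 for Lsp2, -0.48 ± 1.33 for Fbp1 and -0.41 ± 1.55 for Fbp2 (SE, n = 7 and 6). These values carry the set-aside libraries, in which Lsp1alpha had 64.4 CPM in C24_1, the highest C24 library, against 1098 CPM in WT_1. Without C24_1, WT_1 and WT_2 they were -1.73 for Lsp1alpha, -1.88 for Lsp1beta, -1.39 for Lsp1gamma, -1.24 for Lsp2, -0.79 for Fbp1 and -0.71 for Fbp2, again with 0 members past the threshold. Without C24_3 and WT_3 as well, the values ran from -1.56 for Lsp1beta to -0.36 for Fbp2, with 0 members passing (edgeR adjusted p = 0.329 to 0.629). At an unadjusted p under 0.05, edgeR had 1 member over the 13 libraries (Lsp1alpha), DESeq2 0 and limma-voom 2, while 1.41, 4.57 and 0.788% of the genes given a p were under it with these tools. The difference between C24 and WT did not itself differ between the rounds beyond error for any member in edgeR (adjusted p of 1.00 each, with 0 of 10101 genes passing).

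X7/C24 compared with C24 asks what the deletion adds to the hairpin. Lsp2, Fbp1 and Fbp2 rose in X7/C24, 3 of 6 members, while 7.59% of the 9454 genes tested rose and 13.5% passed in either direction. The same 3 of 6 did not overlap between the groups, against 37.9% of all genes, and the Lsp1 genes did not pass in edgeR. In limma-voom the same 3 passed (adjusted p = 0.0104, 0.0135 and 0.0231 for Lsp2, Fbp1 and Fbp2), and in DESeq2 4 of 6 passed, with Lsp1beta as the fourth (adjusted p = 0.0144). Fbp1 had 125, 113 and 108 CPM in X7/C24_1 to X7/C24_3, against 49.5, 64.4 and 25.5 CPM in C24_5 to C24_7. Every X7/C24 pool thus exceeded every C24 pool, and the log2 fold change was 1.41 ± 0.26 (SE, n = 3 each, edgeR adjusted p = 0.0137), or 2.65-fold. Lsp2 had 36.0, 52.0 and 45.3 CPM in X7/C24, against 18.3, 28.0 and 14.3 CPM in C24, a log2 fold change of 1.23 ± 0.21 (edgeR adjusted p = 0.0104). Fbp2 had 9.46, 12.3 and 8.93 CPM in X7/C24, against 5.15, 6.08 and 2.75 CPM in C24, a log2 fold change of 1.23 ± 0.26 (edgeR adjusted p = 0.0227). Of the hexamerin 1 subunits, Lsp1beta had 14.3, 25.6 and 29.7 CPM in X7/C24, against 10.4, 17.7 and 13.4 CPM in C24, with a log2 fold change of 0.84 ± 0.27 (edgeR adjusted p = 0.0755). Lsp1alpha and Lsp1gamma stood at 0.58 ± 0.32 and 0.54 ± 0.27 (edgeR adjusted p = 0.265 and 0.231). That the Lsp1 genes missed the threshold does not show that they differ from Lsp2, Fbp1 and Fbp2 in their change, which was not tested.

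These calls depended on the libraries used. With X7/C24_4 included, 0 of 6 passed in edgeR, with adjusted p of 0.106 for Lsp2, 0.228 for Fbp1 and 0.0981 for Fbp2, log2 fold changes of 1.10, 1.16 and 1.20, and 33 genes passing in place of 1280. In X7/C24_4 Fbp1 was at 48.9 CPM, within the range of the C24 pools, and Lsp2 at 33.7 CPM was above it. Leaving out X7/C24_1 ended the calls of Fbp1 (edgeR adjusted p = 0.0553) and Fbp2 (0.0676), and the call of Fbp2 was also lost without X7/C24_2 (0.0801), X7/C24_3 (0.0568) or C24_5 (0.0521). Without C24_6, Lsp1beta and Lsp1gamma passed too (edgeR adjusted p = 0.0246 and 0.00703), and without X7/C24_1 Lsp1beta did (0.0238). Lsp2 passed in 13 of 14 alternative settings, Fbp1 in 12 and Fbp2 in 9.

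Against WT no member of the 6 passed in X7/C24, although the same 3 genes had positive values. Fbp1 had 125, 113 and 108 CPM in X7/C24, against 75.7, 74.6 and 17.7 CPM in WT_4 to WT_6, a log2 fold change of 1.11 ± 0.42 (SE, n = 3 each, edgeR adjusted p = 0.0632). It was the 1 of 6 members whose groups did not overlap, where 54.2% of all genes did not overlap. Fbp2 stood at 0.88 ± 0.37 (edgeR adjusted p = 0.0853) and Lsp2 at 0.46 ± 0.44 (0.432). The Lsp1 genes had negative values, with -0.34 ± 0.50 for Lsp1alpha, -0.39 ± 0.46 for Lsp1beta and -0.24 ± 0.46 for Lsp1gamma (edgeR adjusted p = 0.613, 0.532 and 0.706). In all, 0 of 6 passed, with 42.3% of the 9657 genes tested passing. These 4087 genes were 2044 higher and 2043 lower with TMM scaling, whereas with total counts 4241 genes passed, 1621 higher and 2620 lower. At an unadjusted p under 0.05, edgeR had 2 members (Fbp1 and Fbp2) and DESeq2 0, and limma-voom had 2, both of which also passed after adjustment (adjusted p = 0.0426 for Fbp1 and 0.0408 for Fbp2). Of all genes 51.0, 46.7 and 51.2% were under that unadjusted p in edgeR, DESeq2 and limma-voom.

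This outcome depended on single WT pools and on the tool. Without WT_6, the pool with little storage transcript, Fbp1 was higher in X7/C24 (log2 fold change 0.67, edgeR adjusted p = 0.00160), while Lsp1beta and Lsp1gamma were lower (-0.82 and -0.68, edgeR adjusted p = 0.0300 and 0.0158), and Fbp2 did not pass. Without WT_5, Fbp1 and Fbp2 passed as higher (1.35 and 1.29, edgeR adjusted p = 0.0283 and 0.00863). The summed share had a geometric mean of 0.0252% in X7/C24_1 to X7/C24_3 and 0.0169% in WT_4 to WT_6, a difference of 0.58 on the log2 scale (exact permutation p = 0.9, n = 3 each, where the smallest possible p is 0.1). Without WT_6 it was -0.13 (exact permutation p = 0.4, n = 3 and 2). The comparisons of X7/C24 with C24 and with WT share the same X7/C24 libraries, and those of X7/C24 and C24 with WT share the WT libraries, so the 3 sets of fold changes are not independent. The plot of fold changes sets them side by side.

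**Figure D3:**
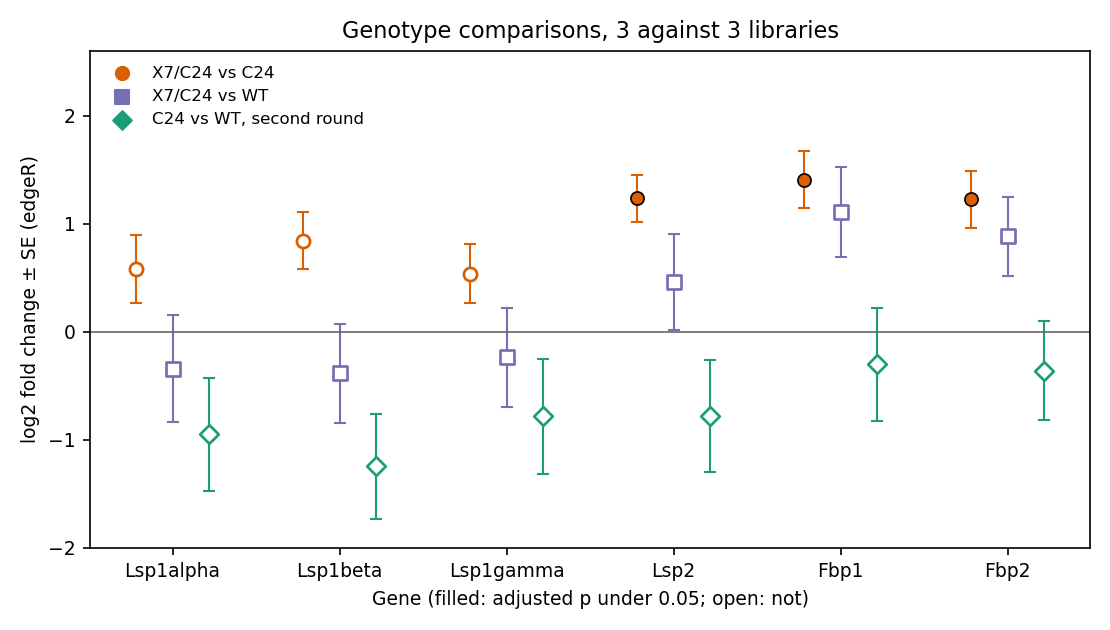
Log2 fold change (point) and SE (bar) of each storage protein gene in X7/C24 over C24, X7/C24 over WT and C24 over WT of the second round, 3 libraries against 3 each, from edgeR; filled points passed an adjusted p of 0.05. Lsp2, Fbp1 and Fbp2 in X7/C24 over C24 are the filled points (1.23, 1.41 and 1.23), and all 6 values of C24 over WT are below 0 but open.

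Other genes known from the fat body were read alongside, from a list of 12 fixed with earlier results of these data known. The list summed to 885, 1759 and 926 CPM in C24_1, WT_1 and WT_2 and to 1172 to 2337 CPM in the other 14 libraries. In those 14 Rfabg, the precursor of the lipid carrier apolipophorin, had 761 to 1944 CPM, against 45.0 CPM in C24_1, 755 CPM in WT_1 and 84.6 CPM in WT_2. Several other genes of the list were higher in all 3 set-aside libraries than in any of the 14. Tsf1, the iron carrier transferrin 1, had 538 CPM in C24_1, 459 CPM in WT_1 and 542 CPM in WT_2, against 80.8 to 179 CPM in the 14. Pepck, an enzyme of gluconeogenesis, had 39.1, 72.2 and 21.9 CPM in C24_1, WT_1 and WT_2, against 2.01 to 8.63 CPM in the 14. Adh, alcohol dehydrogenase, a defining enzyme of the larval fat body, had 0 to 3 counts in every library, C24_1, WT_1 and WT_2 included. Of its exon bases, 93.9% are shared with the listed gene Adhr, and pairs that fall on several genes may not have been counted, so the level of Adh cannot be read from these counts. The gene fon, which encodes a hemolymph clotting protein made by the fat body, had 47.6 CPM in C24_1, 141 CPM in WT_1 and 39.4 CPM in WT_2, against 0.458 to 3.70 CPM elsewhere.

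In X7/C24_1 to X7/C24_3 against WT, 2 of 11 tested genes of the list rose and 1 fell in edgeR, where 42.3% of all genes passed, with a list median of 0.04 against 0.00 over all genes. The GATA factor gene srp, needed in fat body and blood cell development, had 18.6, 19.6 and 27.4 CPM in X7/C24_1 to X7/C24_3, against 0.371, 0.383 and 0.674 CPM in WT_4 to WT_6 (log2 fold change 5.54 ± 0.24, edgeR adjusted p = 6.38e-06). It had 0.787 CPM in X7/C24_4. NLaz, a lipocalin gene, also rose (1.09 ± 0.24, edgeR adjusted p = 0.00789), and Tsf1 fell by 0.39 on the log2 scale (edgeR adjusted p = 0.00975). Against C24, where 7.59% of all genes rose, 4 of 11 rose and 0 fell, namely srp, NLaz, fon and Pepck. Here fon had 1.67, 3.70 and 3.03 CPM in X7/C24, against 1.14, 1.53 and 0.701 CPM in C24 (log2 fold change 1.42 ± 0.35, edgeR adjusted p = 0.0378).

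Hemocyte and ring gland markers were higher in X7/C24_1 to X7/C24_3 as well. The hemocyte (blood cell) list, of which 5 of 7 genes were in the counts, summed to 146, 260 and 332 CPM in X7/C24_1 to X7/C24_3 and 47.0 CPM in X7/C24_4, against 59.5 to 77.5 CPM in C24_5 to C24_7 and 51.5 to 72.2 CPM in WT_4 to WT_6. All 5 rose in X7/C24 over WT and over C24, with medians of 3.96 and 4.50 on the log2 scale against 0.00 and 0.01 over all genes. The ring gland list, of genes for ecdysone synthesis and Akh, summed to 639 to 986 CPM in the 3 X7/C24 libraries. In X7/C24_4 it had 108 CPM. It had 95.5 to 145 CPM in C24 and 47.8 to 97.5 CPM in WT of the second round. All 6 of its genes rose in both comparisons. In the pilot libraries C24_2, C24_3, C24_4 and WT_3 the ring gland list had 736, 869, 373 and 939 CPM. Of 11 muscle genes, 5 rose over WT and 0 fell, where 2044 of the 9657 genes tested rose. Over C24 3 of 11 rose and 0 fell, where 7.59% of all genes rose. X7/C24_4 had hemocyte and ring gland levels near those of the second round, and a storage share of 0.0200%. Its Fbp1 was at 48.9 CPM, against 108 to 125 CPM in X7/C24_1 to X7/C24_3. The part of these tissues in the storage gene differences was not tested.

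In the pilot C24_3 and C24_4, the 2 libraries with the least storage transcript, had 869 and 373 CPM of the ring gland list. C24_2 and WT_3 had 736 and 939 CPM of it. C24_1, WT_1 and WT_2, with the most storage transcript, had 1045, 1562 and 1047 CPM. Every pilot library was thus above all 6 second-round libraries, which had 47.8 to 145 CPM. The set-aside libraries were high in several lists at once, with 2518, 2604 and 1340 CPM of muscle genes in C24_1, WT_1 and WT_2, against 54.9 to 149 CPM in the other 14, and 464, 785 and 454 CPM of the hemocyte list. C24_1 also had 2789 CPM of midgut genes and 1404 CPM of salivary glue genes, against at most 38.2 and 39.1 CPM in the 14 libraries. The hemocyte, muscle and ring gland lists had no gene at 0 in any library. The glia, imaginal disc and neuroblast lists had medians of -0.02, 0.18 and -0.28 in X7/C24 over WT. Of 7 glia genes 1 rose (Gli) and 1 fell (Gs2) in edgeR, and of 8 disc genes 4 rose and 0 fell. Of 6 neuroblast genes 1 rose (grh) and 5 fell. The neuron list had a median of 0.18, with 3 of 8 genes higher and 0 lower. Of the 9657 genes tested 42.3% passed, 2044 as higher and 2043 as lower. In either direction, the neuroblast count was above that share and the glia count below it.

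**Figure D4:**
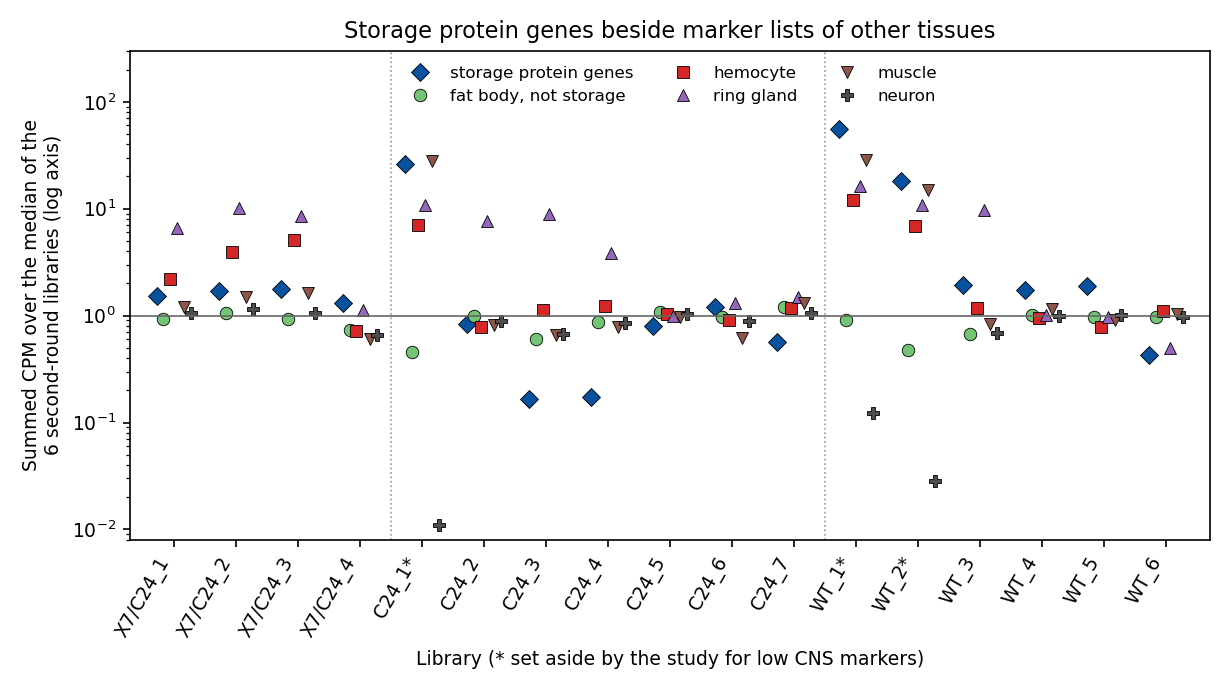
Summed CPM of the storage protein genes and of 5 marker lists in each library, divided by the median of the 6 second-round libraries (log axis), with X7/C24 on the left, C24 in the middle and WT on the right. In X7/C24_1 to X7/C24_3 the ring gland list is at 6.62 to 10.2 and the storage genes at 1.52 to 1.79. In C24_3 and C24_4 the ring gland list is at 9.01 and 3.87 and the storage genes at 0.167 and 0.175. In C24_2 and WT_3 the ring gland list is at 7.63 and 9.73 and the storage genes at 0.837 and 1.95.

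Genes that respond to ecdysone or mark larval age were read alongside, because Fbp1 and Lsp2 are stage-dependent. The 15 genes of a mixed ecdysone list, EcR and usp among them, summed to 6629 to 7037 CPM in X7/C24_1 to X7/C24_3. They summed to 3390 CPM in X7/C24_4, 4614 to 6324 CPM in C24_5 to C24_7 and 5563 to 5608 CPM in WT_4 to WT_6. The sums were 1261, 4432 and 1700 CPM in C24_1, WT_1 and WT_2, and 3434 to 4599 CPM in C24_2 to C24_4 and WT_3. Of the list, 9 of 15 rose in X7/C24 over WT and 0 fell (list median 0.47), where 2044 of the 9657 genes tested rose. Hr46, 1 of the 9 and also higher over C24, shares 61.8% of its exon bases with the listed gene CG12912. Pairs that fall on both may not have been counted. Over C24 3 of 15 rose and 0 fell (list median 0.34), where 7.59% of all genes rose. ImpE2 and ImpE3, ecdysone-inducible genes of imaginal discs, rose most among them, by 2.68 ± 0.16 and 2.00 ± 0.13 over WT (edgeR adjusted p = 3.23e-05 and 4.86e-05) and by 2.21 ± 0.18 and 1.71 ± 0.17 over C24 (edgeR adjusted p = 0.000386 and 0.000877). Both were highest in the set-aside libraries. ImpE2 had 364, 2035 and 546 CPM in C24_1, WT_1 and WT_2, against 14.4 to 270 CPM in the other 14 libraries. ImpE3 had 399, 255 and 374 CPM in the same 3, against 6.22 to 29.3 CPM. In X7/C24_4 they had 14.4 and 7.51 CPM. Whether their rise reflects larval age or other tissue was not tested. In C24 over WT of the second round 0 of 15 genes of the list passed in edgeR. The genes of the Eig71E cluster, most of which turn on in salivary glands at puparium formation, summed to 1.07 to 6.74 CPM in the 14 libraries. There 4 to 10 of 11 genes were at 0. The sums were 72.4, 85.8 and 9.09 CPM in C24_1, WT_1 and WT_2. Eig71Ee alone had 54.0, 28.4 and 8.65 CPM in these 3, and 6.38 of the 6.74 CPM in WT_3. In the 14 libraries the sums rested largely on Eig71Ee, and they are not read here as a measure of stage. The glue genes summed to 5.505 to 39.1 CPM in the 14 libraries, and 1 of 6 tested, Sgs8, fell by 1.11 on the log2 scale in X7/C24 over WT (edgeR adjusted p = 0.0430) and fell by 1.68 over C24 (edgeR adjusted p = 0.0196).

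The genes whose course over the 17 libraries was most like the mean of the storage genes were sought among 10205 genes, by the root mean square difference of centred log2 levels. The members themselves lay 0.31 (Lsp1gamma) to 0.80 (Lsp1alpha) from their mean, and the median over all genes was 2.30. The nearest gene was fon at 0.38, nearer than Lsp2, Fbp1, Fbp2 and Lsp1alpha, and it was also the nearest over the 14 libraries, at 0.39. CG2233 followed at 0.64, with 1.73 to 208 CPM, and Cyp4d1, a cytochrome P450 gene, at 0.74. Npc2g, of a family of lipid-binding proteins, CG2736, CG34166, Idgf5, of the imaginal disc growth factor family, CG6385, CG10799 and CG13962 made up the rest of the first 10, at 0.79 to 0.90. Only fon, CG2233 and Cyp4d1 of these stayed among the first 10 over the 14 libraries, where CG11395 and Obp99b, an odorant-binding protein gene, came next to fon and CG2233 at 0.62 and 0.64. Npc2g, Idgf5, CG6385, CG10799 and CG13962 were at 0 CPM in at least 1 library. Their highest levels were 16.9, 6.39, 4.08, 4.21 and 8.22 CPM. The filter, 10 counts in at least 3 libraries, can be met by the 3 set-aside pools alone. The 17 libraries share these 3 pools as their extremes, and the likeness is a description.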

How the data were processed

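The authors removed low-quality reads, aligned pairs to the fly genome (BDGP5) with BWA, removed duplicates and counted pairs on FlyBase genes with htseq-count, without strand. The deposited values are raw counts of read pairs per gene without normalization, for 17 libraries; 570 of the 13872 genes had no count. Groups came from the sample titles. Gene positions and lengths were looked up by FlyBase identifier in a BDGP6 annotation, where 13153 (94.8%) of the genes were found.

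Genotypes were compared with edgeR 4.0.16 under R 4.3.3 (quasi-likelihood test, TMM scaling, filterByExpr, Benjamini-Hochberg threshold of 0.05 over all genes tested), fitting only the groups compared. DESeq2 1.42.0 and limma 3.58.1 (limma-voom), other scalings, other filters (none; 10 counts in every library), a kit term, a round term, a replicate block and leaving out each library were alternatives, and leaving out 5 pilot libraries was added after seeing the data. On simulated data with 200 genes changed 2-fold, the edgeR test recovered 87% in C24 vs WT of the second round (9394 genes), 88% in X7/C24 vs WT (9657 genes) and 83% in X7/C24 vs C24 (9454 genes), but 0% in C24 vs WT over all rounds (9387 genes). Of the genes called there, 5.43, 6.88 and 11.2% were false in the first 3 comparisons. The members' fitted dispersions lay at the 86.9 to 99.4th percentile of all genes, so recovery of typical genes does not describe them. Shares were compared by 2-sided exact permutation tests (scipy 1.17.1). Log2 CPM for likeness used a prior count of 2 and genes with at least 10 counts in at least 3 libraries. Whether pools came from separate crosses is not given in the sources used here, so p-values measure the spread between pools.

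The members and all lists were chosen with earlier results of these data known. Of 13 lists with 116 genes, 114 genes were found. The members were named in full, as were the 10 genes most like them; of the lists, genes that passed and the 2 with most counts in the highest library were eligible. Adh, Rfabg, Lsd-1, Mtp, CG15828, Ilp6, bmm, CG11395 and Obp99b were chosen after their values were seen.

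Replicate numbers were not taken as pairs. The deviations of same-numbered C24 and WT libraries from their group means correlated at 0.65, -0.75, 0.75, 0.60, 0.88 and 0.83 for numbers 1 to 6 over all rounds, and at -0.15 and -0.22 for numbers 5 and 6 within the second round.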

Additional observations from a re-analysis of the deposited data

Results flagged for a closer look

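Among the 7 C24 libraries, C24_1 stood apart from the rest by Dixon's gap test on log2 values. The gap to the next library was 0.640 of the whole range for Lsp1beta (397 CPM), 0.688 for Lsp2 (1621 CPM), 0.702 for Fbp2 (295 CPM) and 0.610 for the summed storage share (0.393%). C24_1 is a library that the study set aside, and its neuronal list was at 52.5 CPM.

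Among the 4 X7/C24 libraries, Fbp1 in X7/C24_4 stood below the rest, with a gap of 0.842 of the range (48.9 CPM). The other 5 members of X7/C24_4 did not stand apart in this way, and the same library had 0.787 CPM of srp and 48.6 CPM of Smn. Of 21 groups examined 5 were past the limit, where chance gives about 1 in 20. The 4 values of C24_1 come from 1 library and are not independent.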

How the results depend on the processing

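With 3 against 3 pools, a 4.49-fold range of storage transcripts within 1 round and X7/C24 in a round of its own, the data bound these differences loosely. The number of members past the threshold stayed at 0 of 6 for C24 vs WT in both designs. It was 2 under limma-voom for X7/C24 vs WT, and 4 in DESeq2 and 0 with X7/C24_4 included for X7/C24 vs C24. Leaving out 1 library gave 0 to 3 members for X7/C24 vs WT, 2 to 5 for X7/C24 vs C24, and differences of -0.13 to 0.96 for the storage share of X7/C24 vs WT. Under limma-voom Lsp1gamma turned to 0.067 in X7/C24 vs WT, and without the 3 libraries set aside the share of the second round vs the pilot turned to 1.03, and to 1.32 without C24_3 and WT_3 as well; the cause was not tested. Leaving out 1 library turned the sign of Fbp2 in C24 vs WT of the second round (-0.73 to 0.064), of Lsp1alpha (-0.79 to 0.0059) and Lsp1gamma (-0.68 to 0.076) in X7/C24 vs WT, and of Lsp2 (-4.90 to 0.22), Fbp1 (-3.38 to 0.27) and Fbp2 (-4.41 to 0.44) in C24 vs WT over all rounds. The replicate block, with numbers that were not taken as pairs, gave 0 members in both C24 comparisons, turned Fbp1 to 0.57 and Fbp2 to 0.16 in the second round, and gave 14 genes passing there, against 37 without it, and 0 over all rounds, against 1 without it.

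Genes passing in C24 vs WT of the second round (37) were 122 in DESeq2, 10 with at least 10 counts in every library, 11 with a kit term, 214 in 2 against 2 and 5 to 27 with 1 library left out. Those of X7/C24 vs WT (4087) were 761 with X7/C24_4. Those of X7/C24 vs C24 (1280) were 752 with a kit term, 33 with X7/C24_4 and 461 to 2707 with 1 library left out, and 718 higher and 562 lower, where with total counts 517 higher and 636 lower passed. Over all rounds the 1 gene passing became 26 in DESeq2, 0 without a filter or with 10 counts in every library, 35 without the 3 libraries set aside, 54 without C24_3 and WT_3 as well and 0 to 7 with 1 library left out. The list of like genes kept 3 of 10 over 14 libraries and 6 of 10 with a prior count of 0.5. Other scalings changed no member's call.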
